A study of Mus musculus with 6 samples.

Results

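The elastin, microfibril-associated protein and emilin genes of mouse skin were compared between tight skin (TSK) and wild-type (WT) mice. The 6 genes Eln, Mfap2, Mfap4, Mfap5, Emilin1 and Emilin2 were taken by name from the 55291 genes in the tables, and all 6 were present and passed the filter on low counts. RNA had been sequenced from whole shaved dorsal skin of 3 TSK mice and 3 WT littermates, with 1 library per mouse. All mice were on a C57BL/6 background and labelled as 6 to 8 weeks old. TSK mice carry a partial duplication inside 1 copy of Fbn1, which encodes fibrillin 1, in every cell of the body from birth, so the comparison cannot place a change in any 1 cell type. The sex on the labels was female, whereas the study's methods describe male mice. The Y-linked genes Ddx3y, Eif2s3y, Kdm5d and Uty stood between 27.0 and 72.8 CPM over the 6 libraries, as in male and not female mice. CPM is the count per 1e6 counts of a library.

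Elastic fibres give skin its recoil. They consist of a core of crosslinked elastin, secreted as tropoelastin and encoded by Eln, that is laid down on a scaffold of fibrillin microfibrils. Mfap2 and Mfap5 encode small glycoproteins that sit on fibrillin microfibrils and bind growth factors, Mfap4 encodes a fibrinogen-related protein found along elastic fibres, and Emilin1 and Emilin2 encode large glycoproteins with an EMI domain, the first of which lies at the boundary between elastin and microfibrils. These genes are expressed mainly by fibroblasts and, in vessels, by smooth muscle cells.

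Library totals ran from 17561453 to 19219814 counts. Summed over 16 markers, fibroblast transcripts stood at 7841 to 11710 CPM in WT and 23970 to 53110 CPM in TSK, the highest being TSK 3. Of this sum, Col1a1 alone held 2511 to 3613 CPM in WT and 8302 to 22610 CPM in TSK. The median log2 fold change of the 16 markers was 0.93. The sum for adult skeletal muscle stood at 171900 to 250000 CPM in WT and 147800 to 170100 CPM in TSK. No fibroblast marker had a count of 0 in any library. Of all tested genes, 2.71% passed an adjusted p of 0.05 as higher in TSK and 0.681% as lower with edgeR. The share higher moved with the setting. It was 5.5% with DESeq2, 8.44% with library size only, 8.87% and 8.82% with limma-trend on CPM plus 1 and plus 0.1, 2.99% with no filter, 3.33% with the replicate block and 2.17% with limma-voom. It was 3.47%, 1.09% and 0.218% without WT 1, WT 2 and WT 3. Without TSK 1, TSK 2 and TSK 3 it was 2.11%, 1.57% and 1.58%. Every count of genes higher in a list is to be read against the share of its setting. Genes lower were 136 of 19971 in the main fit, 409 of 20629 with DESeq2 and 347 of 34809 with no filter. They were 547 of 20546 without WT 1 and 15 of 20665 without WT 3. Counts of genes lower in a list are to be read against these. As reported, 3 of 12 fat cell markers were higher, with a median log2 fold change of 2.45 that was 1.13 without TSK 2. That library stood far above the rest, as in Plin1 at 63.92, 301.8 and 47.31 CPM in TSK and 9.021 to 14.62 CPM in WT. The fat cell count was 0 without WT 2 or WT 3, 1 without WT 1, 5 without TSK 1, 6 without TSK 2 or TSK 3, 6 with DESeq2 and 9 with library size only or no filter. Genes of developing muscle fell in 7 of 9 (median -1.92), and in 4 without WT 3, where 15 of 20665 genes were lower. Hair follicle genes were higher in 4 of 9, in 0 without WT 3 and in 1 without WT 2, TSK 2 or TSK 3. Markers of differentiated keratinocytes were higher in 3 of 10, and in 0 without WT 3, with sums of 1675 to 2640 CPM in WT and 2934 to 4955 CPM in TSK. None of 12 macrophage markers passed with edgeR, while 5 passed as higher with DESeq2 and 4 with library size only. At an unadjusted p below 0.05 with edgeR there were 8, beside 3998 of all 19971 tested genes in either direction. The macrophage sums were 264.3 to 436 CPM in WT and 495.7 to 1340 CPM in TSK. Endothelial markers passed in 2 of 10, in 0 without WT 3, in 8 with library size only and in 6 with each limma-trend fit, with sums of 163 to 191.2 and 287.4 to 479.1 CPM. Of 16 adult skeletal muscle markers 0 passed as lower with edgeR, 13 with DESeq2, 4 with no filter and 10 without WT 1. At an unadjusted p below 0.05 with edgeR, 10 were lower, as were 1577 of all 19971 tested genes. The part of these cell types in the levels of the 6 genes was not tested. Fbn1 itself, the mutated gene, stood at 272 ± 14.2 CPM in WT and 1940 ± 377 CPM in TSK (SD, n = 3).

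The promoter sequences of Mfap2 and Emilin2 are shown because both transcripts rose in TSK skin. RefSeq promoter windows on build GRCm38.p6 were found for 3 of the 6 genes, Mfap2, Emilin1 and Emilin2. The Emilin1 window lies inside an annotated exon and is not printed. Eln, Mfap4 and Mfap5 had no entry. Each window ends at a RefSeq transcription start, and that of Mfap2 was cut where the first annotated exon begins. Longer annotated Emilin2 transcripts begin further upstream, so the Emilin2 window lies within the span of the gene, next to a start 21 bases from that of the nearest coding transcript. Capitals mark matches, on either strand, to the GC box GGGCGG, the CCAAT box, the TEAD motif GGAATG and the CAGA motif CAGACA, and none of the marked matches overlap.
Mfap2, chr4:141010174-141010417, plus strand: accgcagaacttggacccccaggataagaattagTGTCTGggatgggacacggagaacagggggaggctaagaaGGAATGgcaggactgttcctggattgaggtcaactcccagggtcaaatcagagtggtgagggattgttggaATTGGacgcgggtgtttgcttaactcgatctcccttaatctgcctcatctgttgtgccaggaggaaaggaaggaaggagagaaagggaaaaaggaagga
Emilin2, chr17:71311012-71311261, minus strand: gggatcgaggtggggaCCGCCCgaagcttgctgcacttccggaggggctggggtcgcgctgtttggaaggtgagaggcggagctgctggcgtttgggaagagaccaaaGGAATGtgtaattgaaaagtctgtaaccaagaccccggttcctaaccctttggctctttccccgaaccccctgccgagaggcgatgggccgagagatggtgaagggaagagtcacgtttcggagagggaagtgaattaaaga
The motif GGAATG was present in both windows, beginning 176 bases before the Mfap2 start and 142 bases before the Emilin2 start, and in 12.6% of 32851 promoters cut to 250 bases. Mfap2 also held CCAAT (in 33.8% of promoters) and CAGACA (17.1%), each on the opposite strand, and Emilin2 a GC box on the opposite strand (32.7%). The TATA box TATAAA (12.4% of promoters) and the AP-1 motif TGANTCA (6.75%) had no match in either window. A match is a description of the letters only.

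To ask which of the 6 genes differed between the genotypes, each was read from an edgeR quasi-likelihood fit over 19971 genes, with p-values adjusted over all of them by the Benjamini-Hochberg method. Eln, Mfap2, Mfap5 and Emilin2 rose in TSK skin and no gene of the 6 fell. At an adjusted p below 0.05, 4 of the 6 were thus higher, while 2.71% of all tested genes were higher and 0.681% lower. At the study's own thresholds (more than 2.5-fold, with the adjusted p under 0.01), Mfap5 and Emilin2 were higher, as were 0.255% of all tested genes, while 0.0351% were lower. With DESeq2, the tool of the study, Eln and Mfap2 passed these thresholds as well, which made 4 of the 6, beside 1.5% of the 20629 genes given an adjusted p. With 1 library left out of the edgeR fit, 0 to 2 of the 6 passed them, and 0 did without WT 3 or without TSK 3. In all 6 genes the lowest TSK library stood above the highest WT library on the deposited CPM, as in 29.1% of tested genes. After scaling by TMM, a normalization that limits the weight of a few abundant genes, this held for 5 of the 6 and for 14.1% of tested genes. The median log2 fold change was 1.77 over the 6 genes and -0.03 over all genes tested.

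**Figure D1:**
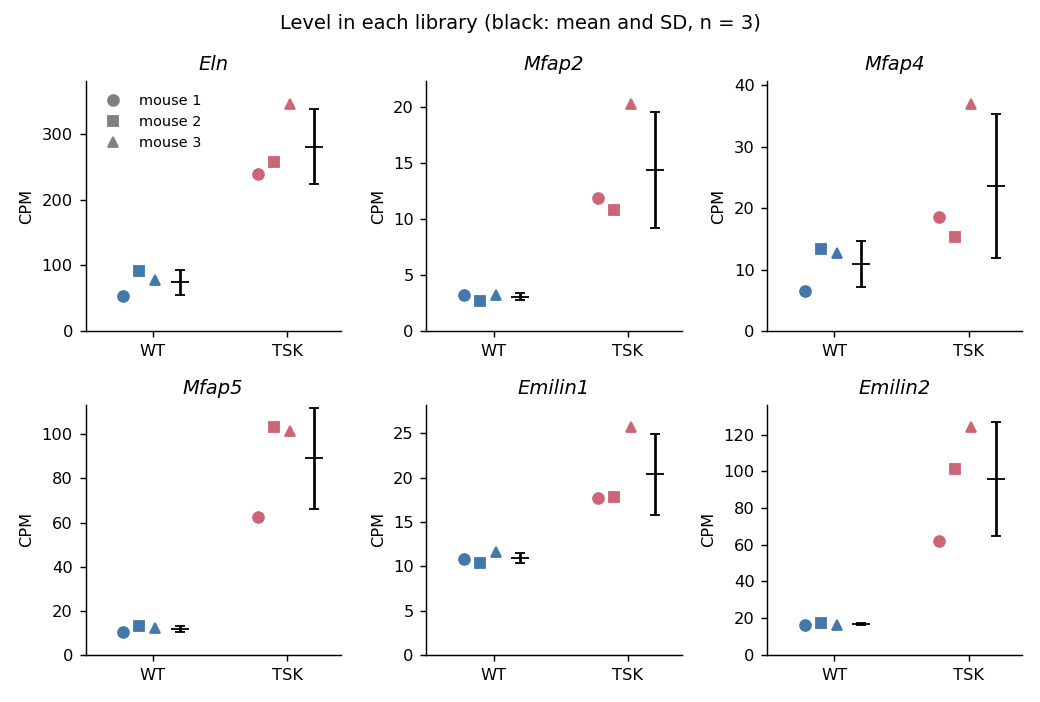
Level in CPM of each gene in the 3 WT and 3 TSK libraries, with a marker shape for each mouse number and the mean and SD beside the points. All TSK points lie above all WT points in each panel, and TSK 3 is the highest library for 5 of the 6 genes, Mfap5 being the exception.

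Eln encodes tropoelastin, the soluble precursor of the elastic core. The gene occupies chromosome 5 from 134702593 to 134747323 in mm10, on the minus strand. The 3 WT libraries held 54.09, 91.17 and 77.79 CPM in the order of their numbers, and the 3 TSK libraries 238.9, 257.5 and 345.7 CPM. The lowest TSK library thus stood well clear of the highest WT library, and WT 1 was the lowest of all. The mean rose from 74.4 ± 18.8 to 281 ± 57.1 CPM (SD, n = 3), a ratio of 3.78 on the deposited CPM, and TMM scaling put the log2 fold change at 1.60 (SE 0.27, adjusted p = 0.0202 with edgeR). The adjusted p was 0.0886 without WT 3 and 0.056 without TSK 3, with log2 fold changes of 1.65 and 1.45. In bulk skin, a change in the number of cells that make a transcript and a change in the amount per cell cannot be told apart, which holds for every gene here.

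Mfap2 and Mfap5 encode the paired microfibril glycoproteins. Mfap5, on the plus strand of chromosome 6 at 122505845 to 122529290, stood at 10.48, 12.98 and 12.08 CPM in WT and 62.58, 103.1 and 101.5 CPM in TSK. WT libraries were close together, and TSK 1 was the lowest of the TSK libraries. Mfap5 had the greatest change of the 6 genes, 2.61 on the log2 scale (SE 0.23, adjusted p = 0.00327 with edgeR), and ranked 87 of 19971 tested genes by fold change. It stayed past 0.05 in each of 15 alternative settings.

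Mfap2, on the plus strand of chromosome 4 at 141010418 to 141015984, was the least abundant of the 6 in CPM. It stood at 3.246, 2.715 and 3.244 CPM in WT and 11.88, 10.82 and 20.25 CPM in TSK, from 51 to 59 counts per WT library and 208 to 382 per TSK library. The WT libraries were nearly level, and TSK 3 was 1.78 times the mean of TSK 1 and TSK 2. Mfap2 rose by 1.94 on the log2 scale (SE 0.25, adjusted p = 0.0107 with edgeR). Without WT 3 the adjusted p was 0.0561, at a log2 fold change of 2.01.

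Mfap4 encodes a fibrinogen-related protein that binds elastic fibre components and cell surface integrins. It lies on the plus strand of chromosome 11 at 61485431 to 61488900, and 89 bases at its end are shared with Mapk7 on the opposite strand. The level was 6.549, 13.36 and 12.76 CPM in WT and 18.48, 15.3 and 36.95 CPM in TSK. WT 1 lay well below the other WT libraries, TSK 2 was close above them, and TSK 3 stood alone at the top. The log2 fold change was 0.79 (SE 0.40) and did not pass the test (edgeR adjusted p = 0.31). It was 0.34 without TSK 3 and 0.50 without WT 1, and none of the 15 alternatives passed 0.05. After TMM scaling the Mfap4 levels of the genotypes overlapped.

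Emilin2, which spans 71252172 to 71311978 of chromosome 17 on the minus strand, encodes an EMI-domain glycoprotein of the extracellular matrix. It stood at 16.28, 17.2 and 16.49 CPM in WT, the narrowest spread among the 6 genes (coefficient of variation 2.88%), and at 62.25, 101.4 and 123.9 CPM in TSK, where the coefficient of variation was 32.6%. Even the lowest TSK library was thus far above the WT range. Emilin2 rose by 2.23 on the log2 scale (SE 0.23, adjusted p = 0.00606 with edgeR) and stayed past 0.05 in each of 15 alternatives. The noncoding gene Gm26561 spans Emilin2 on the opposite strand and has no row in the tables.

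Emilin1, on the plus strand of chromosome 5 at 30913402 to 30921277, encodes the family member at the elastin-microfibril boundary, which also limits processing of the TGF-beta precursor. It stood at 10.84, 10.38 and 11.6 CPM in WT and 17.67, 17.8 and 25.68 CPM in TSK. The genotypes did not overlap, but the TSK libraries were only moderately higher. The log2 fold change was 0.61 (SE 0.17) and did not pass (edgeR adjusted p = 0.0976). It passed in 4 of 15 alternatives, with DESeq2 at 0.61 (adjusted p = 0.0464) and at 0.82 to 0.90 with the 3 alternatives scaled by library size alone, a scaling under which the median over all genes also moved, from -0.03 to 0.25 in edgeR. Parts of the Emilin1 transcripts match other transcripts at 95% identity or more, over at most 150 bases.

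Levels of different genes were compared per length, as CPM per kilobase of annotated exon sequence. In WT skin the order was Eln (9.18 ± 2.32), Mfap4 (5.67 ± 1.96), Mfap5 (3.30 ± 0.353), Emilin2 (3.03 ± 0.087), Mfap2 (2.53 ± 0.253) and Emilin1 (2.22 ± 0.124). Of neighbours in this order, only Emilin2 and Mfap2 had ranges that did not overlap over the 3 mice. In TSK skin the order was Eln (34.7 ± 7.05), Mfap5 (24.8 ± 6.40), Emilin2 (17.4 ± 5.67), Mfap4 (12.3 ± 6.08), Mfap2 (11.8 ± 4.26) and Emilin1 (4.13 ± 0.929). There Eln stood clear of Mfap5, and Mfap2 stood clear of Emilin1, while the other neighbours overlapped.

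The makeup of the set therefore shifted, as shares of the summed level per length. Eln held 35.1% ± 3.2 in WT and 33.3% ± 2.6 in TSK (SD, n = 3). Mfap5 went from 12.8% ± 1.0 to 23.8% ± 4.4 and Mfap4 from 21.4% ± 4.3 to 11.4% ± 3.2. Emilin1 went from 8.74% ± 1.7 to 3.96% ± 0.4. Within every WT library Mfap4 stood above Mfap5, and within every TSK library Mfap5 stood above Mfap4. These shares were not tested and depend on the annotated lengths.

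**Figure D2:**
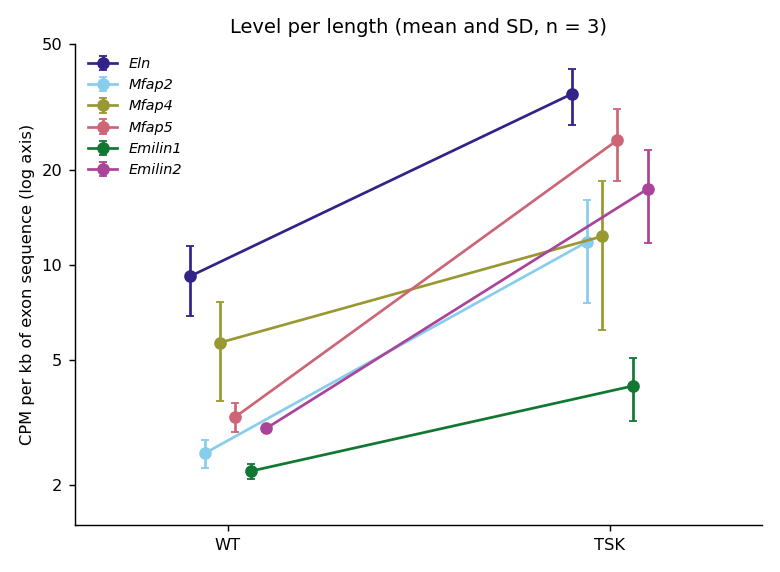
Mean level per kilobase of exon sequence in WT and TSK skin on a log axis, with SD bars (n = 3) and 1 line per gene. The lines of Mfap5 and Emilin2 cross that of Mfap4, from 3.30 and 3.03 against 5.67 in WT to 24.8 and 17.4 against 12.3 in TSK.

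To ask whether each gene kept pace with the mutated gene, its log2 ratio to Fbn1 was taken in every library, from log2(CPM + 1). The duplication repeats exons in the transcript of the TSK copy, so Fbn1 counts are not a like measure in TSK and WT. The part of this in the Fbn1 level and in the ratios was not tested. The Mfap5 ratio was -4.54, -4.37 and -4.33 in WT and -4.60, -4.46 and -4.29 in TSK. These values overlapped, and the difference, TSK minus WT, was -0.03 (exact permutation test, two-sided, p = 0.8). Leaving out any 1 library gave -0.11 to 0.04, and a pseudocount of 0.1 gave 0.05. The Emilin2 ratio was -3.95 ± 0.041 in WT and -4.36 ± 0.32 in TSK, a difference of -0.41 with TSK 3, at -4.01, just below the lowest WT value of -3.99. For Eln and Mfap2 the differences were -0.90 and -0.95, and for Mfap4 and Emilin1 they were -1.81 and -1.99. In all 5 genes other than Mfap5 every TSK ratio lay below every WT ratio (exact permutation test, two-sided, p = 0.1 in each, adjusted p = 0.115 over 15 ratios). The same held for 99.3% of the other tested genes, Fbn1 being among those with the greatest changes (rank 95), so a lower ratio did not set these 5 genes apart. With 3 mice against 3, p = 0.1 is the smallest value this exact permutation test can give, so no ratio could pass 0.05.

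The same genes were set against the mean log2 level of the 16 fibroblast markers, which include the collagen genes Col1a1, Col1a2 and Col3a1. Relative to these, Mfap5 stood higher in TSK by 1.57, Emilin2 by 1.19, Eln by 0.71 and Mfap2 by 0.66 on the log2 scale, in each case with no overlap between the genotypes (exact permutation test, p = 0.1 in each). Of all tested genes, 0.436% stood higher in this way and 78.8% lower. The pseudocount of 1 weighs on Mfap2, which was low in WT. With 0.1 in its place the Mfap2 difference was 0.91, above the 0.71 of Eln, and the difference to Fbn1 was -0.68. The Mfap4 ratio differed by -0.20 and overlapped (exact permutation test, p = 0.5). The Emilin1 ratio differed by -0.39, where WT 2 at -3.95 and TSK 1 at -3.96 nearly touched. When each library was left out in turn, TSK 3 with its high marker sum included, the Mfap5 difference ran from 1.39 to 1.70 and the Emilin2 difference from 1.06 to 1.34. Of the 16 markers, 2 passed 0.05 with edgeR (Dpt and Thy1), beside 2.71% of all tested genes, and 11 passed with DESeq2, beside 5.5%. The count was 13 with library size only (8.44% of all genes), 8 with no filter (2.99%), 5 with the replicate block (3.33%), 1 with limma-voom (2.17%) and 0 without WT 3 (0.218%), TSK 2 (1.57%) or TSK 3 (1.58%). The part of cell makeup in these ratios was not tested.

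**Figure D3:**
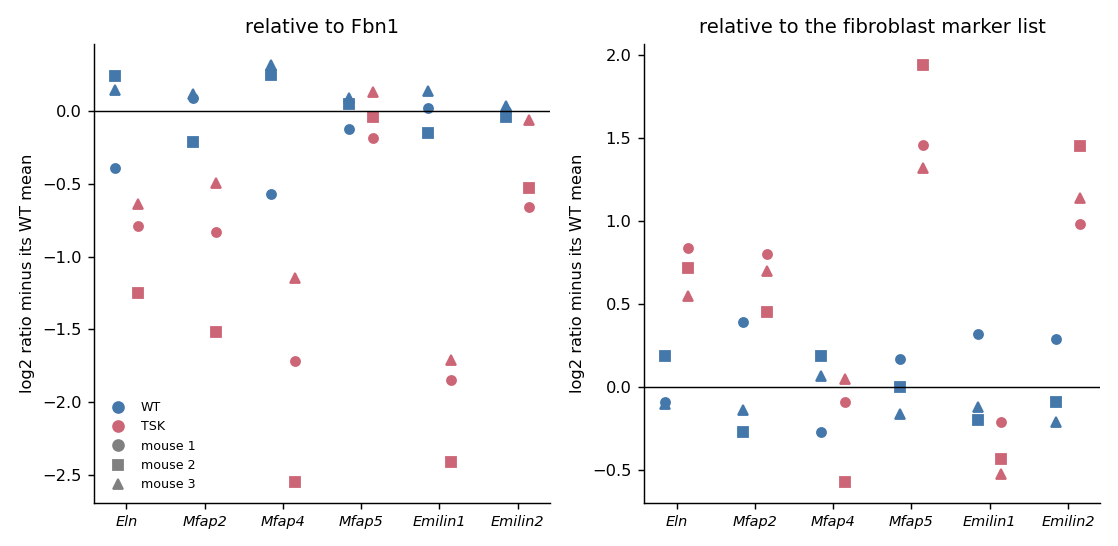
Log2 ratio of each gene to Fbn1 (left) and to the mean of the fibroblast markers (right) in each library, drawn relative to the WT mean, with a marker shape for each mouse number. On the left Mfap5 stays around 0 and Emilin1 falls furthest on average, by 1.99 on the log2 scale. On the right Mfap5 and Emilin2 sit highest and Mfap4 and Emilin1 sit near or below 0.

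Ratios within the families were compared in the same way. The Mfap5 to Mfap2 log2 ratio was 1.43, 1.91 and 1.62 in WT and 2.30, 3.14 and 2.27 in TSK. Its difference was 0.91, with TSK 2 standing above the other TSK libraries. It was 0.63 without TSK 2 and 0.74 with a pseudocount of 0.1. The Emilin1 to Emilin2 ratio was -0.55, -0.68 and -0.47 in WT and -1.76, -2.45 and -2.23 in TSK, a difference of -1.58 that ran from -1.77 to -1.43 when 1 library was left out. The Mfap4 to Eln ratio was -2.69 ± 0.17 in WT and -3.60 ± 0.40 in TSK. The genotypes did not overlap in any of these 3 ratios (exact permutation test, two-sided, p = 0.1 in each, adjusted p = 0.115).

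The genes whose levels followed each of the 6 most closely were listed by Pearson's r of TMM log2 CPM over the 6 libraries, among 12011 genes with a mean of at least 5 CPM. The difference between genotypes enters these values, which are given as a description. Mfap5 was closest to Adamts5 (r = 0.999), which encodes a proteoglycan-cleaving protease, then to Dpysl2 (0.998) and to Fbn1 (0.996). Emilin2 was closest to Cd248 (0.9995), an endosialin gene of fibroblasts and pericytes, then to Dpysl2 (0.9985) and Pros1 (0.998). Emilin1 instead followed the type I collagen genes, with Col1a2 closest (0.999), then Cep295nl and Col1a1 (each 0.998). Eln was closest to Tgfb1i1, Col14a1 and Thsd7a, Mfap2 to 2700081O15Rik, B4galt2 and Ctns, and Mfap4 to Nagpa, Arsi and Zdhhc8.

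Among the 6 genes, the correlation of deviations from the genotype means, which leaves the genotype difference out, was 0.947 between Mfap5 and Fbn1 and 0.908 between Mfap5 and Emilin2. It was 0.926 for Mfap2 with Emilin1, 0.93 for Mfap4 with Emilin1 and 0.926 for Mfap4 with Eln. Mfap2 and Fbn1 gave -0.0572. The points are 6 libraries that share 2 means, so these too are descriptions.

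Other genes of elastic fibre assembly, signalling and turnover were read from 7 lists with 58 genes, of which 54 were tested. The most abundant gene of a list is that with the highest mean CPM over the 6 libraries. With edgeR, 10 of the 54 (18.5%) passed 0.05 as higher in TSK, against 2.71% of all tested genes. No gene of the lists passed as lower (1 lower at an unadjusted p below 0.05, and 0 passed with DESeq2 or limma-voom). The median log2 fold change of the lists was 0.43, beside 1.77 for the 6 genes. The count was 2 without WT 3, 4 without TSK 3, and 6 without WT 2 or TSK 2, where 0.218%, 1.58%, 1.09% and 1.57% of all genes passed in turn. It was 17 with DESeq2, beside 5.5% of all genes, and 25 with library size only, beside 8.44%.

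Of the scaffold, Fbn1 (log2 fold change 2.54) and Fbn2, the second fibrillin (1.35, edgeR adjusted p = 0.0359), were higher. The latent TGF-beta binding protein genes did not pass with edgeR as reported. With library size only and with each limma-trend fit, 5 of the 6 genes of this list were higher. Ltbp4, which takes part in elastin assembly and was the most abundant of them, stood at 157 ± 15.2 CPM in WT and 257 ± 20.5 CPM in TSK, with a log2 fold change of 0.42 (adjusted p = 0.202). Of 6 fibulin genes, 3 were higher, beside 2.71% of all tested genes. The fibulin count was 1 without WT 3, TSK 2 or TSK 3, and 5 with DESeq2, library size only, no filter or the replicate block. Efemp1 had the greatest change (2.20, adjusted p = 0.00327), and Fbln5 (1.44, adjusted p = 0.0234) and Efemp2 (0.92, adjusted p = 0.0304) are the fibulins that carry tropoelastin to microfibrils and help its crosslinking. Fbln2, the most abundant, gave 1.01 and an adjusted p of 0.094.

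Among crosslinking genes, Loxl1, which acts on elastin, was higher (log2 fold change 1.33, edgeR adjusted p = 0.0304). Lox gave 0.62 (adjusted p = 0.264), and Loxl2, the most abundant lysyl oxidase gene, 0.80 (adjusted p = 0.118). Adamts10, whose product binds fibrillin 1, was the 1 of 9 ADAMTS and ADAMTS-like genes to pass (1.16, adjusted p = 0.0236), beside 2.71% of all tested genes, and 3 of 9 passed with library size only. Adamtsl4, the most abundant, gave 0.42 (adjusted p = 0.378). Of 15 genes for receptors and partners 1 passed (6.67%, beside 2.71% of all tested genes), 5 with library size only and 6 with limma-trend on CPM plus 1. The gene that passed as reported was Itgb3, an integrin chain that pairs with alpha v (1.12, adjusted p = 0.0171). Itgb1, the most abundant gene of that list, gave -0.07 (adjusted p = 0.824). Tgfb1 gave 0.47 (adjusted p = 0.211), and Furin, which cleaves the TGF-beta precursor, 0.31 (adjusted p = 0.18).

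Of 10 tested genes for elastin breakdown and its inhibitors 2 were higher, beside 2.71% of all tested genes, the elastin-degrading protease gene Ctsk (1.57, edgeR adjusted p = 0.036) and the metalloproteinase inhibitor gene Timp2 (1.27, adjusted p = 0.0369). Timp3, which had the highest CPM averaged over the 6 libraries (234, beside 227 for Timp2), gave 0.69 (adjusted p = 0.0757). In TSK the mean of Timp2 was above that of Timp3 (339 and 311 CPM) through TSK 3 (489 and 322.7 CPM). Timp3 was the higher in TSK 1 and TSK 2. Mmp12, the macrophage elastase gene, gave 0.07 (adjusted p = 0.866). Mmp2, which is also in the fibroblast list, gave 1.15 (adjusted p = 0.0794). Mmp7, Elane and Slpi were too low to be tested. The count of this list was 0 without WT 1, WT 2, WT 3 or TSK 3, 1 without TSK 2 and 4 with DESeq2, library size only or no filter. Among the other lists, the count of fibrillin and Ltbp genes was 1 without any library but TSK 2, the crosslinking count was 0 without WT 3, TSK 2 or TSK 3, and those of ADAMTS genes and of receptors were 0 without WT 3. Smooth muscle and pericyte markers, from the other cells that make elastin, had a median of 0.55 on the log2 scale, and 1 of 12 passed 0.05 with edgeR as higher (Myh11), beside 2.71% of all tested genes. With DESeq2 (5.5% of all genes higher) and with no filter (2.99%) 5 were higher and 1 lower, and with library size only (8.44%) 7 were higher. Their summed level was 2192 to 2555 CPM in WT and 1920 to 2244 CPM in TSK, most of it from Des, a gene that skeletal muscle expresses too.

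**Figure D4:**
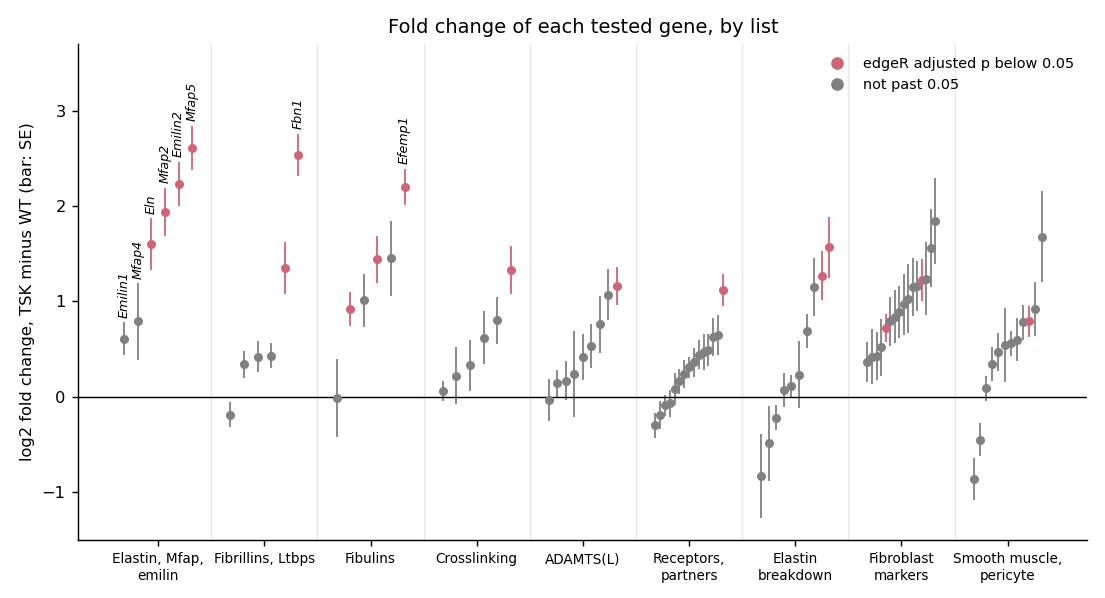
Log2 fold change, TSK minus WT, with its SE for the 6 genes and every tested gene of 6 elastic fibre lists and 2 marker lists, with 1 column per list, ordered by value and without the other EMI-domain genes. Red points passed an edgeR adjusted p of 0.05. Mfap5 (2.61), Fbn1 (2.54), Emilin2 (2.23) and Efemp1 (2.20) are the highest points drawn.

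The fold changes kept their sign throughout the 15 alternatives. They ran from 1.38 to 1.93 for Eln, 1.63 to 2.22 for Mfap2, 0.34 to 1.11 for Mfap4, 2.48 to 2.91 for Mfap5, 0.43 to 0.90 for Emilin1 and 2.02 to 2.53 for Emilin2 on the log2 scale. The ranges of Eln, Mfap2, Mfap5 and Emilin2 thus lay above those of Mfap4 and Emilin1.

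**Figure D5:**
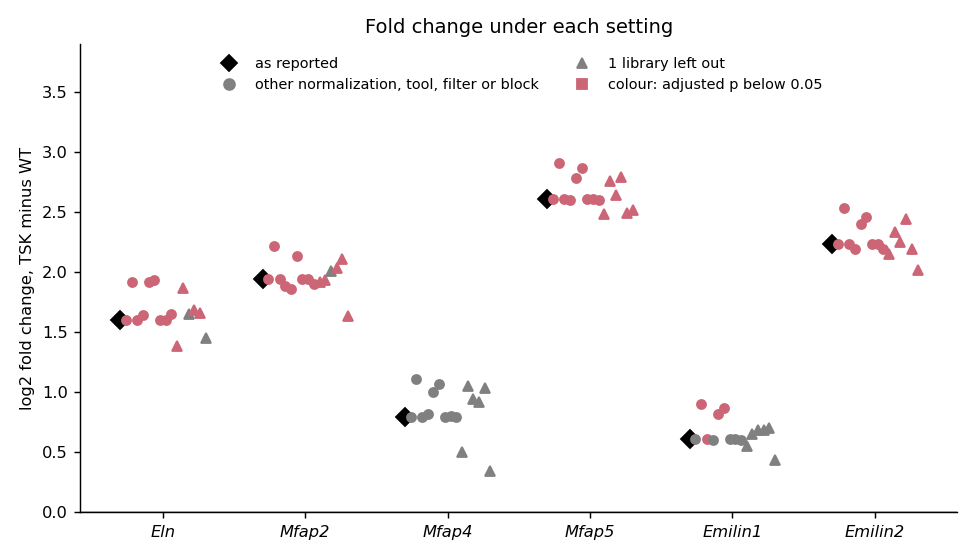
Log2 fold change, TSK minus WT, of each gene as reported (black diamond), with another normalization, tool, filter or block (circles) and with 1 library left out (triangles). Red marks an adjusted p below 0.05. Mfap5 and Emilin2 are red throughout, and Mfap4 in no setting.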

How the data were processed

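Total RNA of whole dorsal skin was depleted of ribosomal RNA and made into stranded libraries, read as single-end reads of 50 bases. Per the labels and the methods of the study, the authors used bcl2fastq 2.19.1.403, STAR on mm10, Ensembl release 100 annotation and Partek Flow 11.0. The deposited count table held estimated counts (43.3% to 45.4% of non-zero values were whole, within 0.001), which were rounded. The deposited CPM were those counts scaled to 1e6 per library by the authors. Whether counting used strand is not given in the sources used here.

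Counts of 19971 genes kept by filterByExpr were tested with edgeR 4.0.16 (quasi-likelihood, TMM, R 4.3.3), with SEs from the fold change and F statistic. Alternatives were DESeq2 1.42.0, the tool of the study, limma 3.58.1 (voom, or trend on log2 CPM plus 1 or 0.1), other scalings and filters, a replicate block and each library left out. Ratios used exact permutation tests. Transcripts were compared by BLAST 2.17.0, and lengths came from GENCODE M21. Genes were named by list, by adjusted p below 0.05, by abundance and by likeness (mean of at least 5 CPM). Ltbp4, Lox, Tgfb1, Furin, Mmp2, Mmp12, Mmp7, Elane, Slpi and the marker genes fall outside this rule and were named for their roles after their values were seen. The members and lists were chosen with earlier results of these data known. Libraries of a genotype differed beyond counting noise (lowest chi-square per degree of freedom 8.87).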

Additional observations from a re-analysis of the deposited data

How the results depend on the processing

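Of 90 values of the 6 genes over all alternatives, 83 stayed on the same side of the threshold, 3 dropped below it and 4 moved past it. Of these values 0 changed sign. All 120 values of the ratios stayed within 1 pooled SD of the reported difference. With 3 mice per group, leaving out 1 library cannot move a difference further than that. For those settings the outcome was thus fixed and says nothing about stability. Calls were lost for Eln without WT 3 or TSK 3 and for Mfap2 without WT 3. Without 1 library the log2 fold changes ran from 1.38 to 1.87 for Eln and 1.63 to 2.11 for Mfap2. Emilin1 gained the call with library size only (0.90), DESeq2 (0.61) and limma-trend on CPM plus 1 (0.82) or plus 0.1 (0.87). The cause was not tested, except that scaling by library size only raised the median of all tested genes from -0.03 to 0.25.

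Genes at an adjusted p below 0.05, 542 higher and 136 lower as reported, were 1685 higher with library size only, 1135 and 409 with DESeq2, 1771 and 1761 higher with limma-trend on CPM plus 1 and plus 0.1, and 1040 and 347 with no filter. Without 1 library they were 45 to 713 higher and 15 to 547 lower, with 45 and 15 without WT 3. At a fold above 2.5 and an adjusted p below 0.01, 51 and 7 became 290 and 15 with library size only, 310 and 66 with DESeq2, 21 and 1 with limma-voom, 269 and 14 with limma-trend on CPM plus 1, 314 and 15 with CPM plus 0.1, 295 and 61 with no filter, and 1 to 42 and 0 to 7 without 1 library. The 10 elastic fibre genes became 25 with library size only and with each limma-trend fit, 17 with DESeq2, 16 with no filter and 2 to 9 without 1 library. The replicate numbers did not pair the mice (correlations of same-numbered libraries 0.0112, 0.167 and -0.0938). With the replicate block 84 higher and 15 lower passed the stricter thresholds, 14 elastic fibre genes passed, and the 6 genes kept their calls at an adjusted p below 0.05, while Mfap2 joined Mfap5 and Emilin2 past the stricter thresholds. Mfap2 had the fewest counts of the 6 genes, 51 to 59 per WT library.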

Other observations

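The genes Mfap1a, Mfap1b, Mfap3 and Mfap3l also carry the Mfap name, Mfap1a and Mfap1b being genes of a splicing factor. None of the 4 passed an adjusted p of 0.05 with edgeR, and 1 was below an unadjusted 0.05. Their log2 fold changes were -0.01, -0.38, 0.20 and -0.11, with SEs of 0.11 to 0.15. These signs depend on the scaling, since 1 of the 4 was above 0 as reported and 3 of 4 with library size only. Mfap1a stood at 32.7 ± 3.28 CPM in WT and 39.1 ± 3.72 CPM in TSK (SD, n = 3), and Mfap1b at 29.6 ± 2.44 and 27.5 ± 2.65 CPM. Mfap3 stood at 17.5 ± 2.36 and 24.2 ± 1.13 CPM, and Mfap3l at 35.2 ± 9.43 and 39.0 ± 3.51 CPM. The genotypes did not overlap for Mfap3, higher in TSK on the deposited CPM and after TMM scaling, nor for Mfap1b after TMM scaling, where it was lower. The similar sequences of Mfap1a and Mfap1b leave the split of reads between them uncertain.

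Of the other genes with an EMI domain, Mmrn2, an endothelial matrix gene, stood at 9.83 ± 0.589 CPM in WT and 19.6 ± 5.35 CPM in TSK, a log2 fold change of 0.71 that did not pass (SE 0.20, edgeR adjusted p = 0.0982). Emilin3 was under 1 CPM on average in both genotypes (0.497 ± 0.117 and 0.903 ± 0.228 CPM), and Mmrn1 was too low to be tested. Endothelial markers, the cells in which Mmrn2 is known, stood at 163 to 191.2 CPM in WT and 287.4 to 479.1 CPM in TSK when summed over 10 genes, and their part in the Mmrn2 value was not tested.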
